A study of Mus musculus with 2 samples.

Results

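The genes described here are 10 members of the NOTCH pathway, the receptors Notch1, Notch2, Notch3 and Notch4, the ligands Dll1, Dll3, Jag1 and Jag2, and the target genes Hes1 and Hey1. They were selected by symbol and role among the 46983 genes of a count table, by a rule that uses no measured value although earlier results of these data were known, and all 10 were found in it. The table holds 2 RNA sequencing libraries of 46C, a line of mouse embryonic stem cells. In 1 library the cells carried a hairpin that targets linc1557, a long noncoding RNA, delivered in the pLKO.1 vector, and in the other a control hairpin. For the line as a whole the labels describe medium with serum and LIF, a cytokine that sustains self-renewal, on a layer of feeder cells, and stably infected clones picked after puromycin selection for the hairpin cells. How many clones went into each library is not given in the sources used here. There was 1 library per group, so no test across replicates could be made, and a difference between the libraries cannot be told apart from one between clones or cultures.

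NOTCH signalling passes between touching cells. A Delta-like or Jagged ligand on one cell binds a NOTCH receptor on its neighbour, the receptor is cut by an ADAM protease and then by gamma-secretase, and its intracellular domain enters the nucleus to join RBPJ and a Mastermind co-activator at target genes such as the HES and HEY repressors. In embryonic stem cell cultures the pathway is known for a part in leaving self-renewal, above all toward neural fates, and fibroblasts, smooth muscle and endothelium express it as well.

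The linc1557 hairpin library, called the knockdown library below, held 26693282 counts and the control library 23146210. No row was matched to linc1557, so the knockdown itself was not checked and each library is named as labelled. All 10 stem cell markers tested were present and none differed by 2-fold. Pou5f1 stood at 331 and 301 counts scaled to library size (CPM) in the knockdown and control libraries, and Tdgf1 at 647 and 358. As a list they leaned to the knockdown library, with a summed level of 3131 CPM against 2286 in the control. Their log2 ratios (knockdown over control) ran from -0.24 to 0.85, the value of Tdgf1, with a median of 0.37. Markers of feeder fibroblasts were present too and stood lower in the knockdown library. Of 30 such markers 29 were tested, and 18 of these were lower with 0 higher, their summed level was 3511 CPM in the control against 2031 in the knockdown library, and Tcf21 had 0 counts in both.

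A gene was tested when it reached 1 CPM in either library after TMM scaling, and it was called lower or higher in the knockdown library when the levels differed by at least 2-fold and the exact 95% interval of their ratio excluded 1. Unless stated otherwise, a range in brackets below is a 95% interval, which covers counting error only and not the spread between cultures. All 10 genes were tested. Notch3 and Dll3 were lower, Notch4 was higher, and the other 7 were not called. Among all 15850 genes tested, 9.48% were lower and 4.68% were higher by this rule, so 2 lower and 1 higher of 10, where 14.2% of all genes were called in either direction, is not far from what the table holds in general. The members lay on the lower side in another sense. Their median log2 ratio was -0.77, against 0.02 for all genes tested, and 7 of the 10 had an interval wholly below 1, as did 31.2% of all genes. Only Notch4 among the 10 had an interval wholly above 1, which 32.8% of all genes had. With a limit of 1.5-fold the same 7 were lower, Notch2 only narrowly at 1.51-fold, and Notch4 was higher. By that limit 16.4% of all genes were lower and 11.5% higher.

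**Figure D1:**
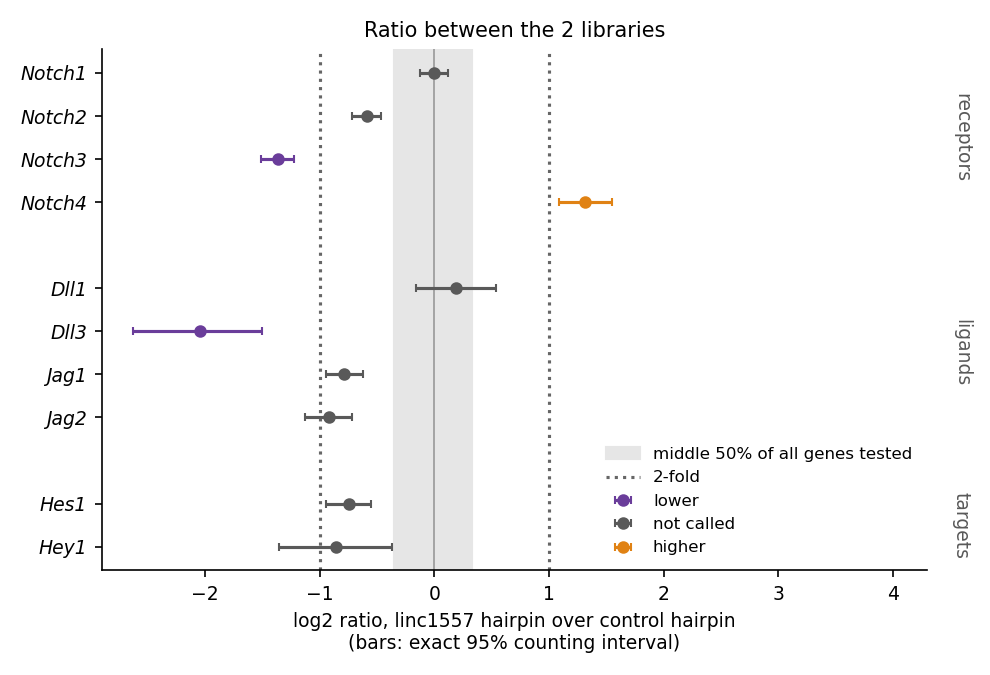
The log2 ratio of each gene (knockdown over control library) is plotted with its exact 95% counting interval, with the 2-fold limits as dotted lines and the middle 50% of all genes tested (-0.35 to 0.33) in grey. Notch3 and Dll3 lie beyond the lower limit, Notch4 lies beyond the upper limit, and Notch1 and Dll1 have intervals that span 0.

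Among the receptors, the 4 genes did not move together. Notch3, a receptor known for its part in the mural cells of arteries, had 582 knockdown against 1413 control counts. It was 2.58-fold lower (2.34 to 2.85), a log2 ratio of -1.37. Notch4, a receptor best known from endothelium, had 558 against 211 counts. It was 2.49-fold higher (2.12 to 2.93), a log2 ratio of 1.32, and stood at percentile 97.3 of all ratios, where Notch3 stood at 5.84.

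Notch2, a widely expressed receptor, had 881 against 1248 counts. It stood 1.51-fold lower (1.38 to 1.64), short of a call. Notch1, the receptor required in the embryo for somite patterning and blood vessels, had 1116 against 1053 counts. After scaling its levels were 43.6 and 43.7 CPM, a ratio of 1.00 (0.921 to 1.09), so a difference was not detectable at this depth. Its log2 ratio of -0.0036 changed sign with the scaling (-0.12 to 0.04 over the settings tried).

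The ratio of Notch4 to Notch3 within a library does not depend on how the libraries are scaled to each other. Per kilobase of gene length, Notch4 stood at 0.149 times the level of Notch3 (0.128 to 0.172) in the control library and at 0.957 times (0.85 to 1.08) in the knockdown library. The ratio was thus 6.42-fold higher in the knockdown library (5.31 to 7.77).

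Both genes lie on chromosome 17, and the 250 bases before their RefSeq start sites (build GRCm38.p6) are shown because these are the receptors that differed in opposite directions. They are written 5′ to 3′ on the strand of the gene, with each CpG dinucleotide in capitals. The Notch3 window is chr17:32166891-32167140 on the minus strand and the Notch4 window is chr17:34564045-34564294 on the plus strand.
Notch3: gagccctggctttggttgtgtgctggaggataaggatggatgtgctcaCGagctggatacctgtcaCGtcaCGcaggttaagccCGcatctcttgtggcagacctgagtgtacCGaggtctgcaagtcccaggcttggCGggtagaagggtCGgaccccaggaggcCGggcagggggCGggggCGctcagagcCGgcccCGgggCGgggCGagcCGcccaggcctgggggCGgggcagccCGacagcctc
Notch4: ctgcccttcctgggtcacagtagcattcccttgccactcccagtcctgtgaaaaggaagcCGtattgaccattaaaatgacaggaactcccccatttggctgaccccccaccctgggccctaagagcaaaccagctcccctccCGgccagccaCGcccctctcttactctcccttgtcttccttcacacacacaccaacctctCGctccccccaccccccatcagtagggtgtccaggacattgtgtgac
The Notch3 window had 17 CpG and 68.8% G and C, and the Notch4 window 4 CpG and 58.4%. Over 32851 such windows in RefSeq the median was 6 CpG, with quartiles of 2 and 16. RefSeq windows were matched for 8 of the 10 genes, not for Hes1 and Hey1, and Dll1 had 2. Those of Notch1, Notch2, Dll3, Jag1 and Jag2 held 16, 34, 10, 20 and 54 CpG, and those of Dll1 21 and 13, so Notch4 had the fewest. The letters TGGGAA, the core bound by RBPJ, were searched on both strands and occurred in none of the 9 windows, and they occur in 21.6% of all windows. That says only that these letters are not in these windows. The counts do not measure DNA methylation or factor binding.

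Levels between genes were compared as RPKM, TMM-scaled CPM divided by the deposited gene length in kilobases. In the control library the receptors were spread out, and no interval overlapped the next. Notch3 stood highest at 7.28 RPKM (6.91 to 7.67), followed by Notch2 at 4.80 (4.54 to 5.07), Notch1 at 3.07 (2.89 to 3.26) and Notch4 at 1.09 (0.944 to 1.24). In the knockdown library they lay close together, with Notch2 at 3.19 (2.98 to 3.41), Notch1 at 3.06 (2.88 to 3.25), Notch3 at 2.82 (2.60 to 3.06) and Notch4 at 2.70 (2.48 to 2.94). There each interval overlapped that of the next receptor in the order, though those of Notch2 and Notch4 did not overlap.

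**Figure D2:**
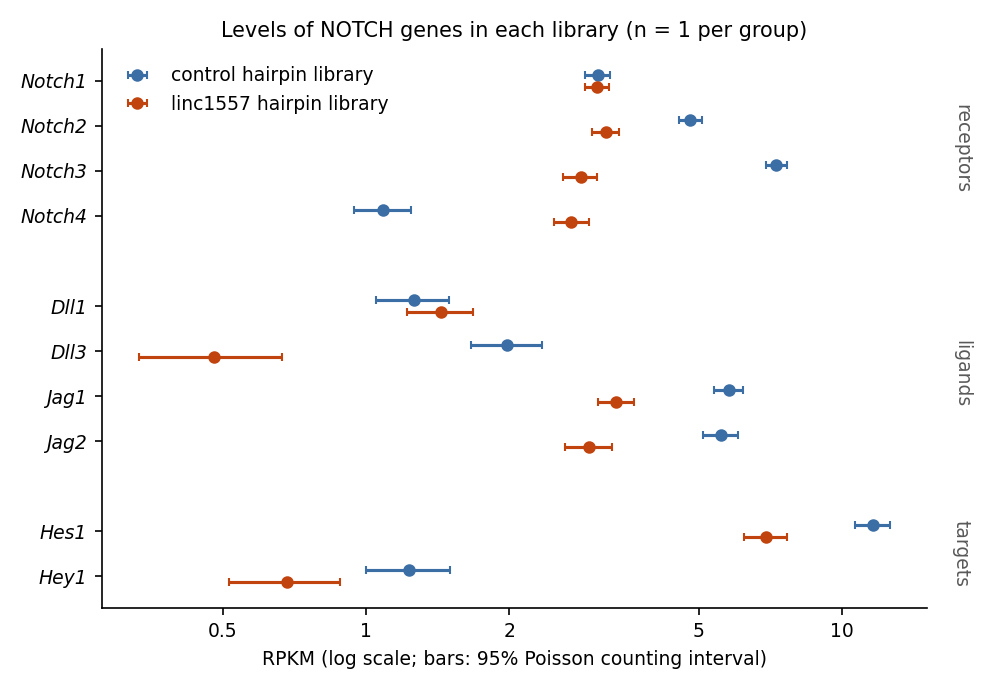
Levels of the 10 genes are plotted as RPKM on a log axis, with 95% Poisson counting intervals, for the control and knockdown libraries. The 4 receptors range from 1.09 to 7.28 RPKM in the control library and from 2.70 to 3.19 in the knockdown library.

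Summed over the 4 receptors, the level was 16.2 RPKM in the control library against 11.8 in the knockdown library, 1.38-fold lower (1.31 to 1.45). Notch3 made up 44.9% of that sum in the control library (43.2 to 46.5) and 24.0% in the knockdown library (22.3 to 25.6). Notch4 went from 6.68% (5.82 to 7.55) in the control to 22.9% (21.3 to 24.6) in the knockdown library. The share of Notch1 was 18.9% in the control and 26.0% in the knockdown library, although its own level was nearly equal in both, and Notch2 made up 29.6% and 27.1%. The control library was therefore led by Notch3, and the knockdown library held all 4 receptors in similar amounts.

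**Figure D3:**
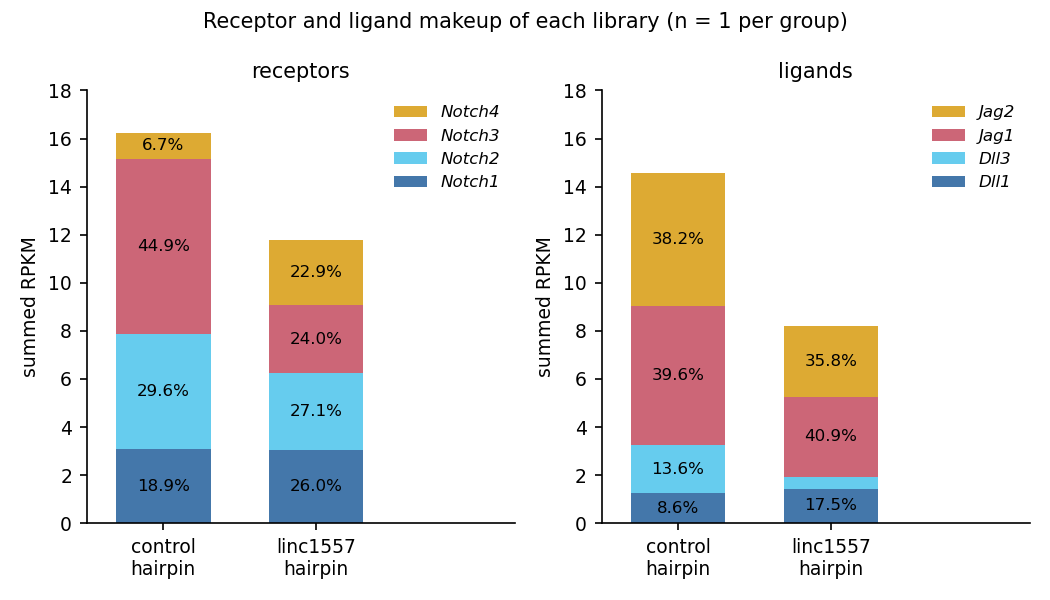
Stacked bars give the summed RPKM of the 4 receptors (left) and of the 4 ligands (right) in each library, with the share of each gene written in its segment. The receptor bar is 16.2 RPKM high for the control and 11.8 for the knockdown library and the ligand bar 14.6 and 8.21, and the unlabelled segment of Dll3 in the knockdown library is 5.84% of its bar.

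Of the ligands, Dll3 was called. Dll3 encodes a divergent Delta-like protein that acts mainly inside the cell that makes it and is needed for somite segmentation. It had 35 knockdown against 136 control counts, which is 4.13-fold lower (2.83 to 6.17), the most extreme ratio of the 10 genes (log2 ratio -2.05, percentile 2.33). Dll1, the Delta-like ligand that activates receptors on neighbouring cells in somites and neural progenitors, had 155 against 128 counts. Its ratio was 1.14 (0.896 to 1.45) toward the knockdown library, within counting error.

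The 2 Delta-like genes therefore changed places. In the control library Dll1 stood at 0.636 times the level of Dll3 per kilobase (0.495 to 0.815), and in the knockdown library at 2.99 times (2.06 to 4.45). Their ratio was 4.69-fold higher in the knockdown library (2.98 to 7.52), a value that is again free of the scaling between libraries. Dll3 rests on few reads, and a level of 0.479 RPKM (0.334 to 0.667) in the knockdown library is the lowest of the 10 genes, with an interval that overlaps that of Hey1.

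The Jagged ligands kept their proportion. Jag1, a ligand of vascular, ear and liver development, had 501 against 812 counts, 1.72-fold lower (1.54 to 1.93). Jag2, a ligand known from limb and craniofacial development, had 305 against 544 counts, 1.89-fold lower (1.64 to 2.19). Neither was called, though Jag2 lay nearest to the limit and passed it with scaling by total counts (log2 ratio -1.04 against -0.92). The ratio of Jag1 to Jag2 was 1.10-fold apart between the libraries (0.917 to 1.32), so a shift between them was not detectable at this depth.

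Per deposited length, the Jagged genes were the main ligands in both libraries. Jag1 stood at 5.78 RPKM (5.39 to 6.19) in the control and 3.36 (3.07 to 3.66) in the knockdown library, and Jag2 at 5.56 (5.11 to 6.05) and 2.94 (2.62 to 3.29). The summed level of the 4 ligands was 14.6 RPKM in the control and 8.21 in the knockdown library, 1.78-fold lower (1.64 to 1.93). Jag1 made up 39.6% of it in the control and 40.9% in the knockdown library, and Jag2 38.2% and 35.8%. Dll3 went from 13.6% (11.5 to 15.6) to 5.84% (3.99 to 7.698) and Dll1 from 8.63% (7.20 to 10.1) to 17.5% (15.0 to 20.0). The level of Jag2 depends on the gene model. The deposited length is 4054 bases and the exons in GENCODE M21 cover 6965. With the latter, Jag2 would stand at 3.24 RPKM in the control and 1.71 in the knockdown library. It would make up 26.4% and 24.5% of the ligand sum. In the knockdown library Jag2 would then be close to Dll1, at 1.43 RPKM and 20.5% of that sum. The ratio of Jag2 between libraries does not use the length.

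Both target genes were on the lower side, without a call. Hes1, a basic helix-loop-helix repressor that NOTCH induces and that oscillates in embryonic stem cells, had 361 knockdown against 570 control counts, 1.68-fold lower (1.47 to 1.92). It was the most abundant of the 10 genes in each library, at 11.6 RPKM (10.7 to 12.6) in the control and 6.92 (6.22 to 7.67) in the knockdown library. Hey1, a related repressor known from heart and vessels, had 57 against 97 counts, 1.81-fold lower (1.29 to 2.55). It stood at 1.23 RPKM (0.999 to 1.503) in the control and 0.681 (0.516 to 0.883) in the knockdown library. Hey1 stood at 0.106 times the level of Hes1 in the control and 0.0985 times in the knockdown library, and these proportions did not differ beyond counting error (ratio 0.928, 0.64 to 1.34). Against Notch1, the receptor whose own level was nearly equal, Hes1 was 0.598 times as high in the knockdown library as in the control (0.509 to 0.701). This largely restates the ratio of Hes1 itself, and the activity of the receptors was not measured.

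The control library thus ranked Hes1, Notch3, Jag1, Jag2, Notch2, Notch1, Dll3, Dll1, Hey1 and Notch4, where the intervals of Jag1 and Jag2, of Dll1 and Hey1 and of Hey1 and Notch4 overlapped. In the knockdown library the order was Hes1, Jag1, Notch2, Notch1, Jag2, Notch3, Notch4, Dll1, Hey1 and Dll3, and from Jag1 to Notch4 each interval overlapped the next, as did those of Hey1 and Dll3. The place of Jag2 rests on the deposited length. With the GENCODE M21 length it would stand between Notch2 and Notch1 in the control library and between Notch4 and Dll1 in the knockdown library. Notch4 moved from percentile 20.4 of all tested genes by level in the control library to 39.2 in the knockdown library, and Notch3 from 63.9 to 40.1. None of the 10 is among the abundant transcripts of either library, with Hes1 the highest at percentile 74.9 in the control and 62.4 in the knockdown library.

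Few other genes of the pathway were called. Of 69 further NOTCH pathway genes on 7 lists, 55 were tested, of which 4 were lower, 51 were without a call and 0 were higher, with a median log2 ratio of -0.01. Beside the 9.48% lower and 4.68% higher among all genes tested, these lists hold no excess of calls. Some genes without a call still differed, as did Lfng (-0.97), Furin (-0.79) and Rfng (0.85), picked after their values were seen. The machinery that cuts the receptor was not called in any of its 10 members (median -0.05). Adam17, a protease that sheds the ectodomain, had a log2 ratio of 0.27, and Ncstn, the nicastrin subunit of gamma-secretase, of -0.59. The 7 glycosylation genes (median 0.08) were likewise without a call. Pofut1, which adds the O-fucose that receptors need, stood at 0.46, and Poglut1, which adds O-glucose, at 0.07. None of the 6 genes of ligand endocytosis (median 0.30) was called, with Mib1, the ubiquitin ligase that activates ligands, at 0.11 and the endocytic adaptor gene Epn1 at 0.11.

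In the nuclear complex 1 of 15 genes tested was lower and 14 were not called (median -0.07). The exception was Maml3, a Mastermind co-activator, with 13 knockdown against 178 control counts, 14.5-fold lower (8.29 to 27.9). Its relatives Maml1 and Maml2, given after their values were seen, had log2 ratios of -0.20 and 0.28, and Rbpj, the DNA-binding partner of all NOTCH receptors, also given here after its values were seen, had 7809 against 6735 counts and a log2 ratio of 0.13. Of 11 genes of inhibition and turnover, Dtx4, a Deltex ubiquitin ligase, was 3.10-fold lower (2.24 to 4.37) from 50 against 146 counts, and 10 were not called (median -0.11).

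Of 8 further ligand genes 3 were tested, and 2 of them were lower (median log2 ratio -1.34). Dlk1, a non-canonical ligand that is also an imprinted gene, was 2.53-fold lower (1.58 to 4.17) from 26 against 62 counts, and Mfap2, a microfibril gene, was 4.49-fold lower (2.13 to 10.6) from 9 against 38. Dll4, the Delta-like ligand of vessels, had 0 and 1 counts, below the limit for testing. Of 11 further target genes 3 were tested and none was called (median -0.30). Nrarp, a feedback inhibitor of NOTCH, stood at -0.30 and Hes6, a HES family member that opposes Hes1, at -0.75. Hes5, Hes7 and Heyl had 0, 3 and 3 knockdown counts and 3, 7 and 8 control counts, too few to test. These 3 and Dll4 were named after their values were seen.

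**Figure D4:**
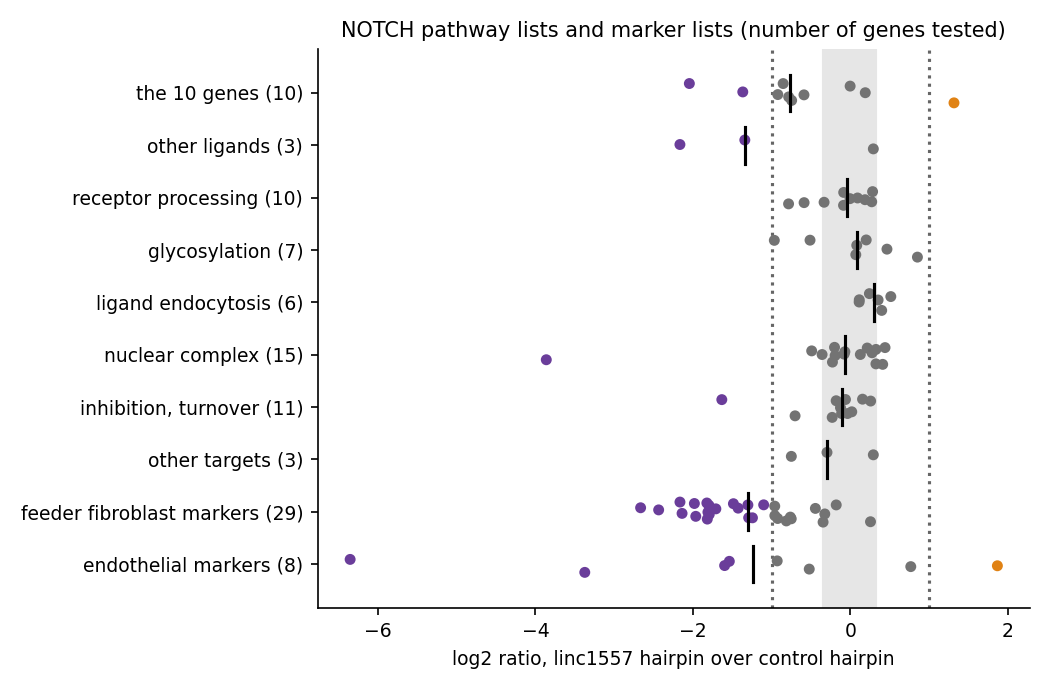
Each dot is the log2 ratio (knockdown over control library) of a tested gene in the NOTCH pathway lists and in 2 marker lists, purple where called lower, orange where called higher and grey where not called. Black bars are list medians, dotted lines mark 2-fold and the grey band is the middle 50% of all genes. Most pathway lists centre near 0, but the other ligands centre at -1.34 from 3 tested genes and the 10 genes at -0.77. The feeder fibroblast list centres at -1.30 and the endothelial list at -1.23.

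Feeder fibroblasts express several NOTCH genes, and their markers as a list moved in the same direction as 7 of the 10 genes. The 29 feeder markers tested had a median log2 ratio of -1.30 and ranged from -2.66 for Timp3 to 0.26 for Dcn. Among the most changed were Col6a3 (5.41-fold lower), Col3a1 (4.48-fold) and Col6a2 (4.402-fold). The shift was not uniform. Fn1, the most abundant of the list at 1058 knockdown against 1199 control CPM, had a log2 ratio of -0.18. Vim, at 297 against 378 CPM, had one of -0.35. Fn1, Vim, Dcn and Tcf21 were named after their values were seen. In RNA from mixed cells, fewer cells of a type and less RNA per cell cannot be told apart. The ratios of 9 of the 10 genes, Notch1 and Dll1 included, lie within the wide range of the feeder markers, and the part of feeder cells in these ratios was not tested. The log2 ratio of Notch4, 1.32, is above that of every feeder marker.

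Endothelial markers, given because Notch4 is best known from that cell type, did not move with it as a list. Of 14 markers 8 were tested, 4 were lower and 1 was higher, with a median of -1.23, and their summed level was 108 CPM in the control against 78.1 in the knockdown library. The defining genes Cdh5, Emcn and Erg had 1, 1 and 2 knockdown counts and 3, 0 and 2 control counts, too few to test. The list median therefore rests on other genes, and the cells in which Notch4 was transcribed were not tested. Flt1 was 10.37-fold lower (8.42 to 12.9) and Vwf 3.03-fold lower (2.27 to 4.07). Sox17 was 81.8-fold lower from 2 knockdown against 154 control counts, with a wide interval (22.3 to 682). The member that was higher was Esam, an adhesion molecule, at 3.65-fold (2.31 to 5.98). Pecam1, the most abundant of the list with 1448 against 801 counts, had a log2 ratio of 0.77, in the direction of Notch4 but without a call. Cdh5, Emcn, Erg and Pecam1 were picked after their values were seen. Of 10 macrophage markers 8 were tested and 4 were lower (Csf1r, Mrc1 and C1qa among them), with a median of -0.54. Marco was higher, with 135 knockdown against 0 control counts. Adgre1, Cd68 and Itgam, given after their values were seen, were not called and had log2 ratios of 0.83, 0.22 and 7.9e-05. The summed level of the list was 52.2 CPM in the control against 36.5 in the knockdown library.

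Because clones had been picked, each gene was set beside its neighbours, the tested genes that start within 1 Mb of it. The 28 neighbours of Notch3 had a median log2 ratio of -0.06, none lower and 1 higher. Around Notch4, within the major histocompatibility region, 89 neighbours had a median of -0.28, with 8 lower and 2 higher. The nearest of the higher neighbours, the pseudogene Btnl7-ps, starts 16.6 kb before Notch4 and had 149 against 62 counts (log2 ratio 1.18), whereas Gpsm3 and Pbx2 on the other side stood at 0.04 and -0.35. These 3 were picked for their position after their values were seen. The 66 neighbours of Dll3 had a median of 0.03, with 2 lower and 2 higher. The ratios of the 3 called genes lay outside those of most genes around them, which the 2-fold call makes likely anywhere in the genome. Over all genes tested, 9.48% were lower and 4.68% higher. For the other 7 genes the medians of the neighbours lay between -0.26 (Hes1, 7 neighbours) and 0.23 (Jag1, 3 neighbours). Over all tested genes of a chromosome, the median was -0.17 for chromosome 17, which holds Notch3, Notch4 and Dll1. It was -0.18 for chromosome 16, which holds Hes1. For chromosomes 2, 3, 7 and 12, which hold the remaining members, it lay between -0.03 and 0.10.

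**Figure D5:**
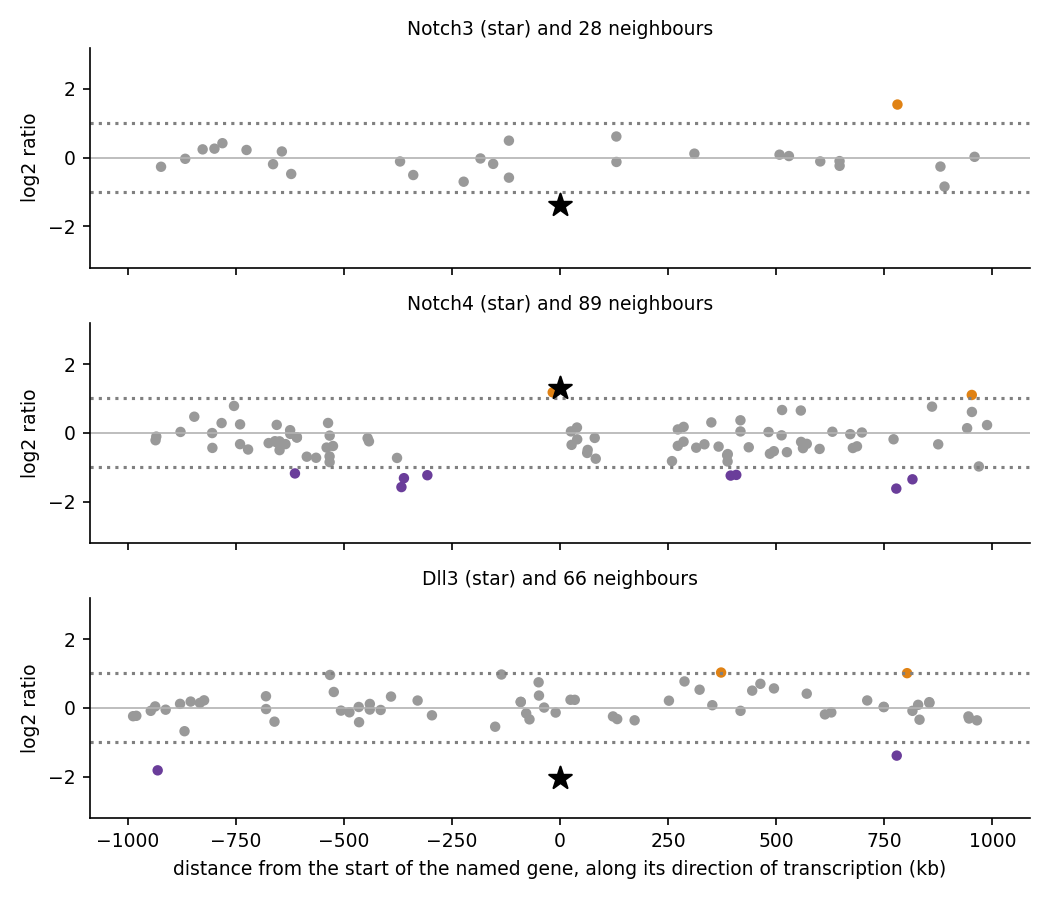
The log2 ratio (knockdown over control library) of every tested gene is plotted by its distance in kb from the start of Notch3, Notch4 or Dll3, which is drawn as a star. Most neighbours lie between the dotted 2-fold lines, and the star lies outside them in all 3 panels, as the call requires.

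In GRCm38 coordinates from GENCODE M21, Notch1 (ENSMUSG00000026923) lies on chromosome 2 from 26457903 to 26516663, Notch2 (ENSMUSG00000027878) on chromosome 3 from 98013527 to 98150361, Notch3 (ENSMUSG00000038146) on chromosome 17 from 32120820 to 32166852 and Notch4 (ENSMUSG00000015468) on chromosome 17 from 34564268 to 34588503. Dll1 (ENSMUSG00000014773) lies on chromosome 17 from 15367354 to 15376872, Dll3 (ENSMUSG00000003436) on chromosome 7 from 28293553 to 28302238, Jag1 (ENSMUSG00000027276) on chromosome 2 from 137081456 to 137116644 and Jag2 (ENSMUSG00000002799) on chromosome 12 from 112907819 to 112929776. Hes1 (ENSMUSG00000022528) lies on chromosome 16 from 30064384 to 30067796 and Hey1 (ENSMUSG00000040289) on chromosome 3 from 8663359 to 8667256. Other annotated genes overlap Notch1, Notch2, Notch3, Notch4, Dll1 and Jag2, but their counts were small. The largest were Gm42819 and Gm42820 within Notch2, on its strand, with 57 and 42 knockdown counts and 62 and 65 control counts, and the antisense Gm17276 at Notch3 had 2 and 5. The strand setting of the counting is not given in the sources used here, so reads of a gene and its antisense partner cannot be told apart. A count covers the whole gene, so transcript forms were not told apart.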

How the data were processed

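The authors deposited raw read counts per gene with a gene length column, 1 column for each of the 2 libraries. The submitters' processing notes name featureCounts, HISAT2, Trim Galore and DESeq, with mm10 and GRCm38 as builds. Their versions, the annotation release and the strand setting are not given there. Per the labels' protocols, Trizol was used for total RNA and an Illumina TruSeq RNA kit for the libraries.

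Symbols came from GENCODE M21 (46488 identifiers matched, 495 not). Its exon length equalled the deposited length for 83.0% of matched genes and for 8 of the 10 members, not Notch3 and Jag2. TMM factors (1.04 for the control and 0.96 for the knockdown library) came from edgeR 4.0.16 (R 4.3.3), and the rest with scipy 1.17.1, pandas 2.3.3 and numpy 2.4.6 in Python 3.11.15. Plots were drawn with matplotlib 3.10.9. A gene entered at 1 CPM in either library. Ratios carry exact Clopper-Pearson intervals (95%), levels Poisson intervals, and shares and sums delta-method intervals. Ratios use no pseudocount, and a ratio against 0 counts used a floor of 3 counts. Every ratio is relative to the TMM scaling.

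The members and the 14 gene lists (the members, 7 NOTCH pathway lists, presomitic mesoderm, proneural, stem cell, feeder fibroblast, endothelial and macrophage genes) were chosen with earlier results of these data known. Named genes are all members and, for each list, up to 4 called genes with the largest ratio, or its 2 most abundant tested genes if it had no call. Genes named outside this rule are marked as such in the text. Alternatives were scaling by size factors of DESeq2 1.42.0 or by total counts, TMM over nuclear protein-coding genes, no filter, 5 CPM, a prior count of 2, fold limits of 1.5 and 4, and thinning of the deeper library. GENCODE M21 lengths were added after seeing the data.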

Additional observations from a re-analysis of the deposited data

How the results depend on the processing

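Notch3 and Dll3 remained lower and Notch4 higher under all 7 alternatives of scaling, filter, prior count and depth, with log2 ratios from -1.49 to -1.33, from -2.16 to -1.98 and from 1.20 to 1.36. Jag2 was called with total-count scaling alone, which makes 3 members lower, and Hey1 was not tested at 5 CPM. Total-count scaling shifted the median ratio of all genes by -0.12. The count of calls followed the fold limit. At 1.5-fold, 7 members were lower, with 2598 genes lower and 1817 higher in all. Among these members Notch2 fell short of 1.5-fold with DESeq2 size factors (log2 ratio -0.55), protein-coding TMM (-0.57) or thinning (-0.56). At 4-fold 1 member was lower (Dll3) and 0 were higher, with 389 genes lower and 152 higher. At 5 CPM, 728 genes were lower and 330 higher of 11534. With GENCODE M21 lengths Jag2 stood at 3.24 RPKM in the control and 1.71 in the knockdown library. With 1 library per group none could be left out, and depth limits Dll3 and Hey1 most, with 35 and 57 counts in the knockdown library.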

Other observations

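Dll1 and Dll3 are known for their expression in presomitic mesoderm and in neural progenitors, and lists of genes from these settings are given for that reason, as values. Of 14 presomitic mesoderm genes 7 were tested. T (brachyury) was 70.5-fold lower in the knockdown library (43.2 to 124), Rspo3, a WNT agonist, 27.6-fold lower (10.5 to 103) and Cdx2 16.5-fold lower (4.19 to 142), while Mesp2 and Tbx6, factors of segmentation, were 2.12-fold higher (1.29 to 3.58) and higher by a log2 ratio of 1.017 from 43 against 20 counts. The list median was 0.79, with 3 lower, 2 higher and 2 not called, so its sign differs from that of the members furthest from 0. Tcf15, the member at the median, had 815 against 443 counts and was not called.

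Of 12 proneural genes 5 were tested, with a median log2 ratio of -0.66. Nes (nestin) was 2.13-fold lower (1.97 to 2.31) and Mycn 2.63-fold lower (2.47 to 2.80), and Sox1 was 7.66-fold higher (3.49 to 19.9) from 57 against 7 counts. Tbx6 and Tcf15 were named after their values were seen.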
